A study of Mus musculus with 2 samples.

Results

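The hnRNP and SR genes encode abundant nuclear proteins that bind pre-mRNA and steer splicing, and they were examined in a single pair of RNA-seq libraries from mouse embryonic stem cells (mESCs). They were chosen by name, as the rows whose symbol starts with Hnrnp or Srsf and goes on with small letters and digits only. This rule found 31 of the 18888 genes in the deposited table, 20 Hnrnp and 11 Srsf genes, and it used no measured value. Both libraries come from 46C cells, an mESC line. PB cells carry the empty PiggyBac vector (PB), and PB-TERRA cells carry the same vector with telomeric repeats, from which polyadenylated TERRA (telomeric repeat-containing RNA) is made. Both cell populations were grown on gelatin and are labelled as passage 21 to 24. Each condition has 1 library of total RNA, so no spread between replicates can be given and every comparison is between 2 libraries, not between 2 conditions. TERRA itself is not analysed here.

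hnRNP proteins coat nascent transcripts, and many of them repress the use of nearby splice sites. SR proteins carry domains rich in arginine and serine, bind exonic enhancers and recruit the spliceosome, and kinases of the SRPK and CLK families control them by phosphorylation. Several genes of both families limit their own expression through exons that send the transcript to decay. TERRA consists of UUAGGG repeats, and hnRNP A1 is known to bind this repeat, in TERRA and in single-stranded telomeric DNA. The deposited annotation gives telomere-related terms to 2 of the 31 genes, Hnrnpa2b1 (telomere capping, binding of single-stranded telomeric DNA) and Hnrnpc (telomerase RNA binding). The question put to the data was whether the RNA level of these proteins differed in cells that overexpress TERRA.

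The sequences before the transcription starts are shown for 4 of the genes, to set the telomeric repeat and common promoter elements beside the RNA levels. Hnrnpa1 encodes the TERRA binder, Hnrnpa2b1 was the only member with TTAGGG in this window, and Srsf5 and Srsf9 had the highest and the lowest ratio of the Srsf genes past the filter described below. Each run holds the 250 bases before a RefSeq start in GRCm38.p6, read 5′ to 3′ on the strand of the gene. Capitals mark the telomeric repeat (TTAGGG), the CCAAT box, the GC box (GGGCGG) and the TATA box (TATAAA), each on either strand.
Hnrnpa1, chr15:103240147-103240396, + strand: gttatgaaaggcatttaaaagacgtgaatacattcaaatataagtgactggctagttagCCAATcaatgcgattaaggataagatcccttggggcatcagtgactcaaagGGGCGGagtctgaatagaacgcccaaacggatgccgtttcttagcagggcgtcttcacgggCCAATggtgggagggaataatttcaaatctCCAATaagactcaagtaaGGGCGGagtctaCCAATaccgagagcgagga
Hnrnpa2b1, chr6:51469846-51470095, - strand: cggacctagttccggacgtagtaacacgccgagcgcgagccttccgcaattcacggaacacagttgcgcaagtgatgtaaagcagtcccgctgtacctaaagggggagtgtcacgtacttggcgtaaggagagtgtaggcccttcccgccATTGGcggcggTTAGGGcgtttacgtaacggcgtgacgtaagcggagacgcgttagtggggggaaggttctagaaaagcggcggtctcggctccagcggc
Srsf5, chr12:80945249-80945498, + strand: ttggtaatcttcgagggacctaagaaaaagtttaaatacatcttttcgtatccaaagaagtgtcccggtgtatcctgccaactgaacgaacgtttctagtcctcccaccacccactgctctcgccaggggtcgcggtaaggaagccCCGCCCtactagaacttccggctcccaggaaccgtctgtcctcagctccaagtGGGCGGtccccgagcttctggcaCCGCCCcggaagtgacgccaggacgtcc
Srsf9, chr5:115326927-115327176, + strand: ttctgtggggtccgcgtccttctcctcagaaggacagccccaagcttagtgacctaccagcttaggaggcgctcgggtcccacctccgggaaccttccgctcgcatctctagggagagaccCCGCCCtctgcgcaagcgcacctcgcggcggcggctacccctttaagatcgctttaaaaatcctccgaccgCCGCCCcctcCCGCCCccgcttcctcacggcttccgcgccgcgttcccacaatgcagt
RefSeq entries matched 29 of the 31 genes, all but Hnrnpll and Hnrnpul2, and motifs were searched on both strands in every start listed for a gene. TTAGGG, the DNA form of the TERRA repeat, was present for 1 of the 29 members, against 10.7% of 27025 genes with an entry and 11.3% of the 9473 of these that passed the filter. GGGCGG was present for 24 members (82.8%), against 35.4% of all genes and 66.2% of those past the filter. CCAAT was present for 16 members (55.2%), against 37.5% and 41.3%, and TATAAA for 3 members, against 14.3% and 7.39% of genes. The median number of CG dinucleotides in the window, taking for each gene the listed start with the most, was 25 for the members and 18 for genes past the filter. These matches describe the letters of the windows and say nothing of which factors bind there.

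Levels are the authors' values, read as FPKM since the table names no unit. In FPKM fragments are divided by the length of the gene and by the depth of the library, and a difference is the log2 ratio of the PB-TERRA level to the PB level after adding 0.1 FPKM to each. A gene passed the filter when it had at least 1 FPKM in 1 library or both. This was so for 12263 genes and for 30 of the 31 members. The table holds no reads. Low values of short genes step in units of 1 fragment, however, and these steps placed the depth at 24770000 fragments in PB and 24940000 in PB-TERRA. Intervals given with ratios are exact 95% intervals on the fragments estimated in this way. They cover counting error only, and not the difference between 2 cultures of the same kind. Fewer cells of a type and less RNA per cell cannot be told apart in such bulk samples.

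All 10 marker genes of mESCs were detected in both libraries, from 5.79 to 1163 FPKM in PB. Pou5f1 had 745 and 773 FPKM (PB, then PB-TERRA), Nanog 186 and 173 FPKM, and Sox2 134 and 145 FPKM. Primitive endoderm markers were low, with a summed level over 8 genes of 11.6 and 15.9 FPKM, and higher in PB-TERRA in all 6 that passed the filter. The summed level of 8 fibroblast markers was 19.7 and 23.9 FPKM. That of 6 neural progenitor markers was 29.1 and 23.1 FPKM, most of it from Nes (27.3 and 20.9 FPKM), while Sox1 was higher in PB-TERRA (1.06 and 1.56 FPKM). Of 10 markers of 2-cell-like cells 9 had a value, with a sum of 4.07 and 1.76 FPKM, and 1 passed the filter. The part of all these cell types in the ratios of splicing genes was not tested. No defining marker of another lineage that was listed exceeded 27.3 FPKM in either library, the value of Nes in PB.

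Most hnRNP and SR genes were expressed at a high level and differed little between the libraries. Excluding no member, the levels ran from 0.41 to 563 FPKM in PB and from 0.53 to 544 FPKM in PB-TERRA, with medians of 89.6 and 96.5 FPKM. At least 100 FPKM in both libraries was reached by 15 of the 31 genes, and 18 ranked among the 1000 most abundant genes in both. Together the members made up 0.990% of the summed FPKM in PB and 1.04% in PB-TERRA. Hnrnpf was the most abundant member in both libraries, ahead of Hnrnpa1 and Hnrnpk, and Srsf12, a relative of Srsf10, was the only member below the filter (0.41 and 0.53 FPKM). The order of the members by level was nearly the same in both libraries. It changed for 9 genes, by at most 2 places, and Spearman's rho across the 30 genes past the filter was 0.997, a description of genes that share both libraries.

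**Figure D1:**
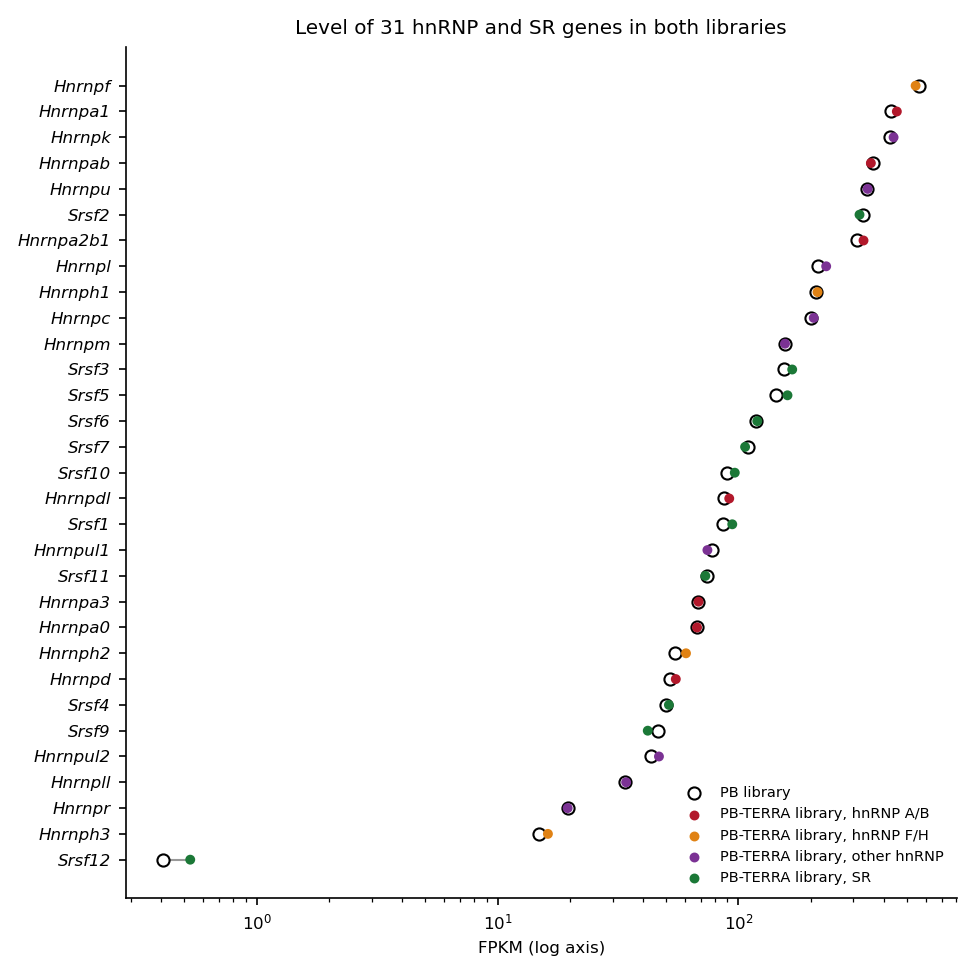
Level of the 31 hnRNP and SR genes in FPKM (log axis), ordered by the PB library. Open circles stand for the PB library and filled circles for the PB-TERRA library, coloured by subfamily, with 1 library each and no error bars. The circles of nearly all genes overlap or touch, and Srsf12 stands apart at 0.41 and 0.53 FPKM.

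No member past the filter reached a log2 ratio of 0.2 in either direction, a threshold chosen with earlier results of these data known. Of all genes past the filter 25.1% did (11.6% higher and 13.6% lower). Of 1660 abundant genes, those that reached 50 FPKM in each library and so were closer to most members in level, 11.3% did. A log2 ratio of 1 was reached by 0 members and by 0.913% of all genes. The ratios of the 30 members ran from -0.14 to 0.16, a change in FPKM from -9.05% to 11.6%. Their SD was 0.072, against 0.31 across all genes past the filter and 0.15 across genes of at least 50 FPKM. Among the lists of other splicing genes described below, it was 0.11 each for other hnRNP proteins, SR-related proteins and the spliceosome core. It was 0.18 for tissue-restricted regulators and 0.21 for kinases and import receptors. Within 0.1 of 0 lay 21 of the 30 members, 47.4% of all genes and 62.8% of genes of at least 50 FPKM.

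Within this narrow range the members leaned towards higher values in PB-TERRA. A ratio above 0 was found for 21 of 30 members, against 48.6% of all genes, and a ratio below 0 for 9, against 50.9%, a split that became 26 and 4 with the libraries scaled to the same summed FPKM, when 58.7% of all genes were higher and 41.3% lower, and 19 and 11 with scaling to the 75th percentile, when 46.2% were higher and 53.8% lower. Scaling moves all genes alike, so each split of the members has to be read against that of all genes on the same scale. The median log2 ratio of the members was 0.030, and that of all genes past the filter -0.0044. The counting interval lay above 0 for 13 members (18.1% of all genes) and below 0 for 5 (17.6% of all genes). It included 0 for 12. No interval stayed below 0 with the libraries scaled to the same sum, where 18 lay above 0 and 0 below, against 25% and 12.3% of all genes. After subtracting the length trend 14 lay above 0 and 2, those of Hnrnpf and Hnrnpul1, below, against 18.1% and 17.1% of all genes. Of the 25 members that reached 50 FPKM in each library, 18 were higher (47.2% of all such genes), and the interval lay above 0 for 12 (26.7% of all such genes) and below 0 for 4 (31.4% of all such genes). With 1 library per condition, how far such small ratios vary between cultures is unknown.

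**Figure D2:**
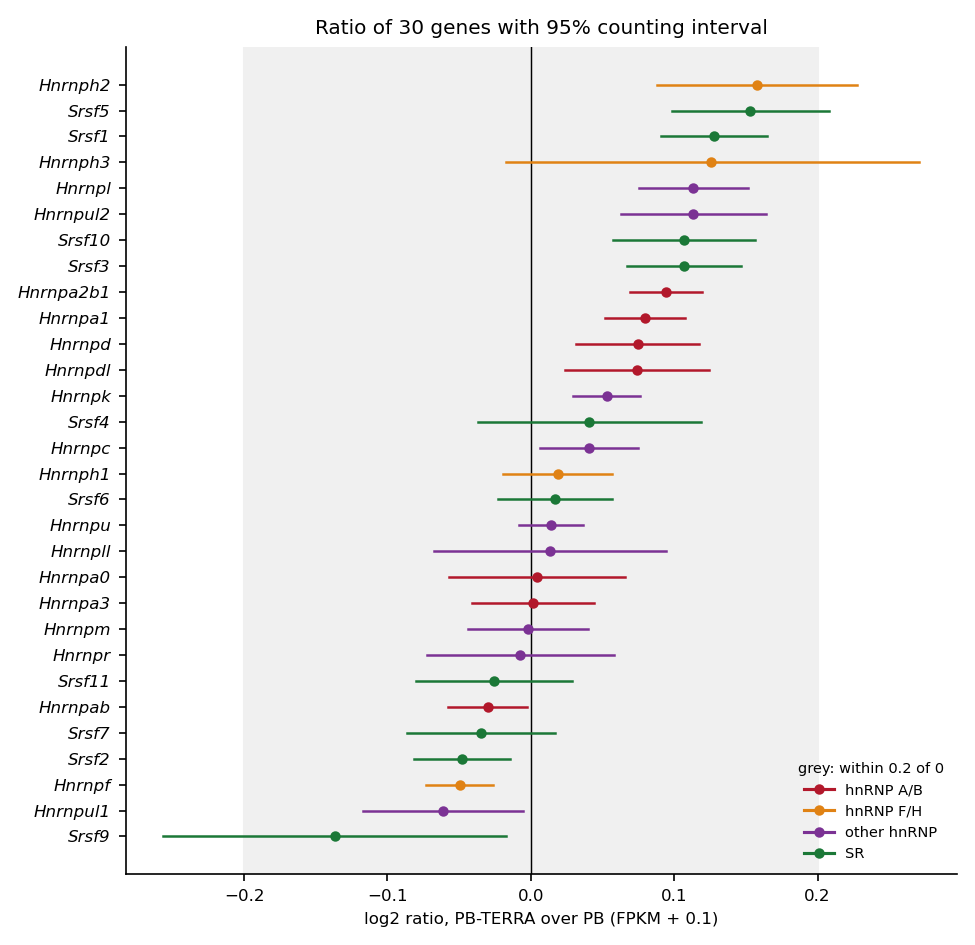
Log2 ratio of FPKM + 0.1, PB-TERRA over PB, of the 30 members past the filter, in order, with exact 95% counting intervals as bars and subfamilies as colours. All points lie inside the grey band of 0.2 on either side of 0, and 13 intervals lie to the right of 0 and 5 to the left on the deposited scale.

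**Figure D3:**
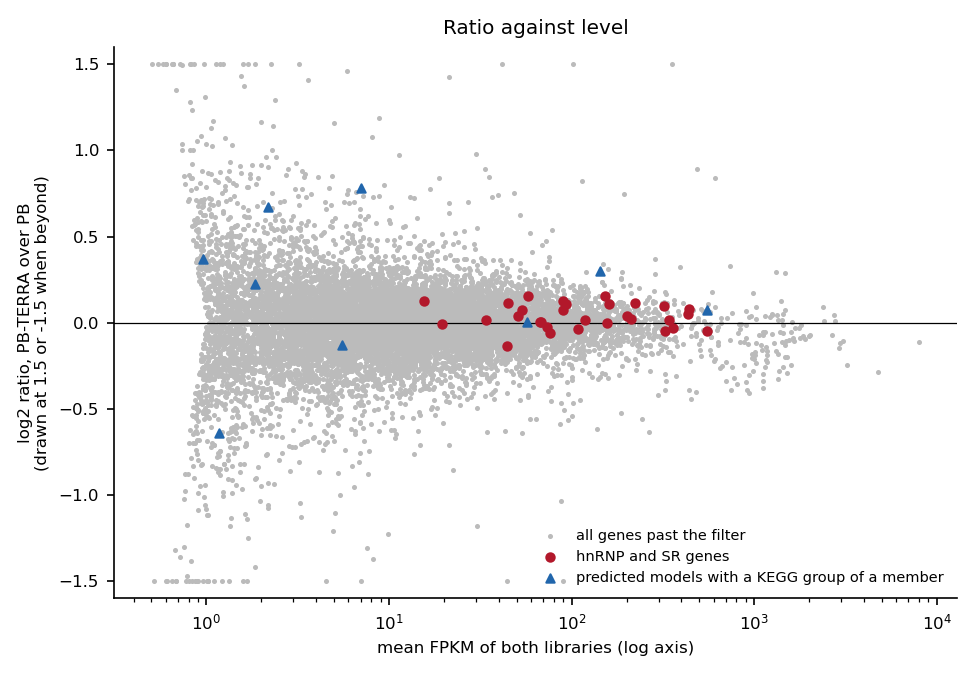
Log2 ratio against the mean FPKM of both libraries (log axis) for the 12263 genes past the filter (grey), the 30 hnRNP and SR genes past it (red circles) and 9 predicted gene models that share a KEGG group with a member (blue triangles), with ratios beyond the axis drawn at its ends. The red circles form a narrow band about 0 in which 21 lie above it.

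In the hnRNP A/B family, 6 of 7 genes were higher in PB-TERRA (48.6% of all genes were), and the median log2 ratio was 0.074, or 0.054 with the length trend taken off. The split depended on the scale. Under the same sum 7 of 7 were higher, against 58.7% of all genes. Under the 75th percentile 4 of 7 were, against 46.2% of all genes, and Hnrnpa0 (-0.0063) and Hnrnpa3 (-0.0091) turned. Hnrnpa1, whose protein shuttles between nucleus and cytoplasm and binds the TERRA repeat, had 430 FPKM in PB and 454 FPKM in PB-TERRA, 5.69% more (log2 ratio 0.080, 95% interval 0.052 to 0.11). Its close relative Hnrnpa2b1 had 309.5 and 330.4 FPKM (log2 ratio 0.094, 0.069 to 0.12). For both genes the level was higher in PB-TERRA by more than counting error, although the direction of Hnrnpa1 turned when the fragments of its listed pseudogenes were added, as described next. Hnrnpd, which encodes the AU-rich element binder AUF1, had 52.2 and 54.9 FPKM (log2 ratio 0.075), and its relative Hnrnpdl had 87.0 and 91.6 FPKM (log2 ratio 0.074), with both intervals above 0. Hnrnpa0, whose protein also binds AU-rich elements, had 67.1 and 67.3 FPKM, and Hnrnpa3 had 68.2 and 68.3 FPKM. The intervals of these last 2 genes included 0. Hnrnpab was the only lower gene of the 7, with 362 and 354 FPKM (log2 ratio -0.030, 95% interval -0.058 to -0.0025), and its ratio was above 0 with the libraries scaled to the same sum or with the length trend taken off.

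The value of Hnrnpa1 could not be separated from its copies in the genome. Of the 50-base stretches in its annotated transcripts (GENCODE M21, GRCm38), 28.2% occur in a transcript of another gene, nearly all of these in the processed pseudogene Gm10052. This gene, named after its values were seen, is in the deposited table with 368 FPKM in PB and 281 FPKM in PB-TERRA (log2 ratio -0.39, 95% interval -0.43 to -0.35). It was thus lower by far more than Hnrnpa1 was higher. In fragments, Hnrnpa1 had 20197 and 21493, and Gm10052 had 11981 and 9217. Summed with Gm10052 and a further pseudogene, Gm5643, which had 7 and 1 fragments, Hnrnpa1 had 32185 and 30711 fragments and, corrected for the depth of the libraries as all ratios of summed fragments are here, a log2 ratio of -0.078 (95% interval -0.10 to -0.055), the opposite direction. How the authors' counting divided fragments between Hnrnpa1 and Gm10052 is not given in the sources used here.

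The table also holds gene models without a symbol, predicted by the authors, and 7 of these carry the KEGG group of hnRNP A1 and A3. BGI_novel_G000503 was more abundant than Hnrnpa1, with 539 and 567 FPKM (log2 ratio 0.072). BGI_novel_G000531, annotated as hnRNP A3, had 128 and 158 FPKM (log2 ratio 0.30, 95% interval 0.25 to 0.35), which lay above the ratio of every named member past the filter. BGI_novel_G000849 had 56.8 and 56.9 FPKM, and the other 4 models had at most 8.90 FPKM in either library. Over Hnrnpa1, Hnrnpa3 and these 7 models, the fragments summed to 56001 and 59949 (log2 ratio 0.088, 95% interval 0.072 to 0.11). With Gm10052, Gm5643 and Gm6793, a listed gene that shares 20.5% of the stretches of Hnrnpa3, the sum over 12 genes and models was 68048 and 69245 fragments (log2 ratio 0.015, 95% interval 5.52e-06 to 0.031). The fragments of these 12 genes and models together thus differed less between the libraries than those of Hnrnpa1 or Gm10052 alone. This rested on adding Gm10052, which was named after its values were seen, since the sum was at 0.088 before. Gm5641, which shares 26.0% of the stretches of Hnrnpa3, has no value under that name, so the sum need not cover all such sequence.

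**Figure D4:**
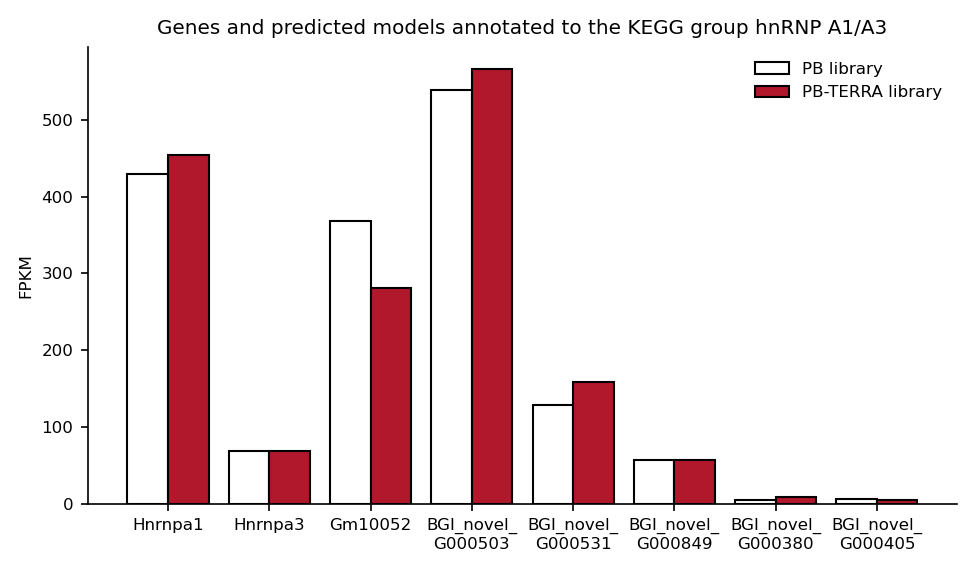
FPKM in the PB library (white bars) and the PB-TERRA library (red bars) of the genes Hnrnpa1, Hnrnpa3 and Gm10052 and of the 5 predicted models past the filter that carry the KEGG group hnRNP A1/A3, 1 library per bar. Gm10052 is lower in PB-TERRA (368 and 281 FPKM), while Hnrnpa1 and the 2 most abundant models are higher.

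The hnRNP F/H family, whose proteins bind runs of guanosines, went both ways. Hnrnpf, the most abundant member, had 563 and 544 FPKM (log2 ratio -0.050, 95% interval -0.073 to -0.026), but its log2 ratio was -0.012 with the libraries scaled to the same sum, with an interval of -0.035 to 0.012 that included 0. Hnrnph1 had 210.1 and 213 FPKM (log2 ratio 0.019), with an interval that included 0. Setd1b, a gene of other function that shares 1.64% of the stretches of Hnrnph1, had 13.3 and 16.2 FPKM (log2 ratio 0.29). The fragments of both genes together had a log2 ratio of 0.078 (95% interval 0.045 to 0.11). That sum takes in all fragments of Setd1b, so it is no value of Hnrnph1 alone. Hnrnph2, an X-linked relative of Hnrnph1, had 54.3 and 60.6 FPKM, the highest ratio of any member past the filter (0.16, 95% interval 0.088 to 0.23). Hnrnph3 was low, at 14.8 and 16.2 FPKM, and its interval included 0 (log2 ratio 0.13). Because of Hnrnpf, the summed FPKM of the family was lower in PB-TERRA, 842 and 833 FPKM, although 3 of its 4 genes were higher (48.6% of all genes were); the sum was higher with the libraries scaled to the same summed FPKM (log2 ratio 0.023). Hnrnpf also shares 61.9% of its annotated 50-base stretches with other genes, mainly processed pseudogenes such as Gm6430, and Hnrnph2 shares 15.9%. These pseudogenes are not analysed here, and the values of both genes are uncertain where the counting could split fragments.

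Among the other hnRNP genes, 6 of 9 were higher in PB-TERRA, against 48.6% of all genes. Hnrnpk, whose protein binds cytidine-rich sequence through KH domains, had 425 and 440.4 FPKM (log2 ratio 0.053, 95% interval 0.029 to 0.076). Hnrnpl, a binder of CA repeats, had 214 and 231 FPKM (log2 ratio 0.11, 0.076 to 0.15), while its paralog Hnrnpll had 33.9 and 34.2 FPKM. Hnrnpl was higher by more than counting error, and Hnrnpll was not. Hnrnpc, which binds uridine tracts of nascent transcripts, had 199.6 and 205 FPKM (log2 ratio 0.041), with an interval above 0 that included 0 when the libraries were scaled to the 75th percentile. Hnrnpu, also known as scaffold attachment factor A, had 340.5 and 344 FPKM, and the interval of its log2 ratio, -0.0085 to 0.036, was the narrowest among the members. Its relatives differed in direction, with Hnrnpul1 at 77.5 and 74.3 FPKM (log2 ratio -0.061) and Hnrnpul2 at 43.2 and 46.8 FPKM (log2 ratio 0.11), each beyond counting error, although with the libraries scaled to the same sum Hnrnpul1 was at -0.023 and its interval, -0.079 to 0.032, included 0. Hnrnpm (156.2 and 156.0 FPKM) and Hnrnpr (19.6 and 19.5 FPKM) had the ratios nearest to 0 below it, -0.0019 and -0.0073.

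Of the 10 Srsf genes past the filter, 6 were higher and 4 lower in PB-TERRA (48.6% and 50.9% of all genes), with a median log2 ratio of 0.029, against 0.030 for the 20 Hnrnp genes. Srsf1, the prototype SR protein known as SF2/ASF, had 86.3 and 94.2 FPKM (log2 ratio 0.13, 95% interval 0.091 to 0.16). Srsf9, its closest relative in the family and in the same KEGG group, had 46.2 and 42.0 FPKM (log2 ratio -0.14, 95% interval -0.26 to -0.018). These intervals lay on opposite sides of 0, but that of Srsf9 included 0 with the libraries scaled to the same sum (-0.22 to 0.020) and with the length trend taken off (-0.22 to 0.018). The intervals of the pair did not overlap on any of these scales, and Srsf9 had the lowest ratio of any member. Srsf9 shares none of its annotated stretches with another gene (0%), and Srsf1 shares 0.882%.

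Srsf4, Srsf5 and Srsf6 form a further KEGG group. Srsf5 had 144 and 159.8 FPKM (log2 ratio 0.15, 95% interval 0.099 to 0.21), whereas Srsf4 (50 and 51.4 FPKM) and Srsf6 (118 and 119.7 FPKM) had intervals that included 0. Srsf3, a small SR protein that couples splicing to mRNA export, had 155 and 167 FPKM (log2 ratio 0.11). Its relative Srsf7, which carries a zinc knuckle, had 109 and 106.5 FPKM, with an interval that included 0. Srsf10, which acts as a repressor when it loses its phosphates, had 89.6 and 96.5 FPKM (log2 ratio 0.11, 95% interval 0.058 to 0.16). Srsf3 and Srsf10 were thus higher by more than counting error. Srsf2, also known as SC35, had 329 and 318 FPKM (log2 ratio -0.048, 95% interval -0.082 to -0.015), but 0.0022 with the length trend taken off and -0.010 with the libraries scaled to the same sum, with an interval that then included 0. Srsf11 had 74.2 and 72.9 FPKM and an interval that included 0. Srsf12, below the filter, had a log2 ratio of 0.30 from 29 and 37 fragments (95% interval -0.40 to 1.10), so that no difference could be detected with so few fragments.

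Over all genes, ratios were slightly higher in longer genes. Across the 12263 genes past the filter Spearman's rho of the log2 ratio with gene length was 0.18, and across the 30 members it was 0.058, both as descriptions of genes from the same libraries. After subtracting the median ratio of genes in the same length bin, 23 members were higher and 7 lower, against 49.8% of all genes in each direction, and the median was 0.037. Single genes of the family were also uncertain because of copies. More than 10% of the annotated 50-base stretches occurred in another gene for 12 of the 31 members and under 1% for 10, with a median of 5.06%. These shares were computed for the members only and cannot be set beside those of all genes. Some of the sharing genes are of other function and were lowly expressed. Phykpl, which shares 23.7% of the stretches of Hnrnpab, had 1.90 and 2.23 FPKM, and Mettl23, which shares 13.1% of those of Srsf2, had 6.36 and 5.39 FPKM.

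The remaining splicing machinery was read from 5 lists. Of 18 other hnRNP proteins, all past the filter, 8 were higher and 10 lower in PB-TERRA, near the shares of all genes (48.6% and 50.9%), with a median log2 ratio of -0.015. Ptbp3 (16.5 and 18.7 FPKM) and Syncrip, also called hnRNP Q (104 and 116 FPKM), had the highest ratios, 0.18 and 0.16. The poly(C) binders Pcbp4 (83.1 and 72.2 FPKM) and Pcbp3 (10.6 and 9.26 FPKM) had the lowest, -0.20 and -0.19.

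SR-related proteins, which carry arginine and serine repeats but are not classical SR proteins, were higher for 20 of 25 genes past the filter (48.6% of all genes were higher), with a median log2 ratio of 0.095. Acin1, an apoptotic chromatin condensation factor found at the exon junction complex, had 80.5 and 94.9 FPKM (log2 ratio 0.24), and Pnn, which like Acin1 binds Rnps1, had 47.0 and 54.1 FPKM (log2 ratio 0.20). Rnps1, itself a part of that complex, was the lowest, with 239 and 207 FPKM (log2 ratio -0.21), followed by the splicing activator Tra2b with 183 and 174 FPKM (-0.073). Genes of this list are long, with a median of 3731 bases against 2801 for all genes past the filter. With the length trend taken off, 17 were higher and 8 lower, against 49.8% of all genes in each direction, and the median was 0.088.

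Of 11 kinases and import receptors of SR and hnRNP proteins in the table, 7 were higher and 4 lower (48.6% and 50.9% of all genes), with a median log2 ratio of 0.058, or 0.028 with the length trend taken off. Clk2, a kinase that phosphorylates SR proteins in the nucleus, stood apart with 8.77 and 5.70 FPKM (log2 ratio -0.61, 95% interval -0.83 to -0.42), and next to it came Srpk1, with 58.5 and 56.2 FPKM (-0.056). Srpk2 (7.57 and 8.38 FPKM) and Prpf4b (27.5 and 30.04 FPKM) had the highest ratios, 0.14 and 0.13. In the core of the spliceosome 31 of 64 genes were higher and 33 lower, near the shares of all genes (48.6% and 50.9%), with a median of -0.0061. These genes are short, with a median of 1756 bases, and with the length trend taken off 38 were higher and 25 lower, against 49.8% of all genes in each direction, with a median of 0.021. Snrpd2, an Sm ring protein, had 259 and 316 FPKM (log2 ratio 0.29), and Lsm5 had 43.5 and 50.6 FPKM (0.22), while Sf3b5 had 109 and 81.7 FPKM (-0.41) and Plrg1, a component of the Prp19 complex, 75.2 and 65.6 FPKM (-0.20).

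Splicing regulators best known from certain tissues had a median of 3.06 FPKM in PB over 24 genes. Their levels were uneven, and Celf1 (73.3 and 75.9 FPKM), Rbm38 (58.5 and 59.9 FPKM) and Qk (54.1 and 58.4 FPKM), named after their values were seen, were the most abundant. Of the 17 past the filter 13 were higher in PB-TERRA, against 48.6% of all genes, with a median log2 ratio of 0.10. Their median length was 4954 bases. With the length trend taken off 12 were higher and 5 lower, against 49.8% of all genes in each direction, with a median of 0.074. Mbnl2 (14.7 and 19.6 FPKM) and Mbnl1 (2.24 and 2.98 FPKM), muscleblind proteins that repress exons of the embryonic stem cell splicing pattern, had the highest ratios, 0.41 and 0.40. Esrp1, an epithelial regulator, had 21.8 and 18.2 FPKM (log2 ratio -0.26, 95% interval -0.35 to -0.17), and the neuronal Nova1 1.66 and 1.51 FPKM (-0.13).

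**Figure D5:**
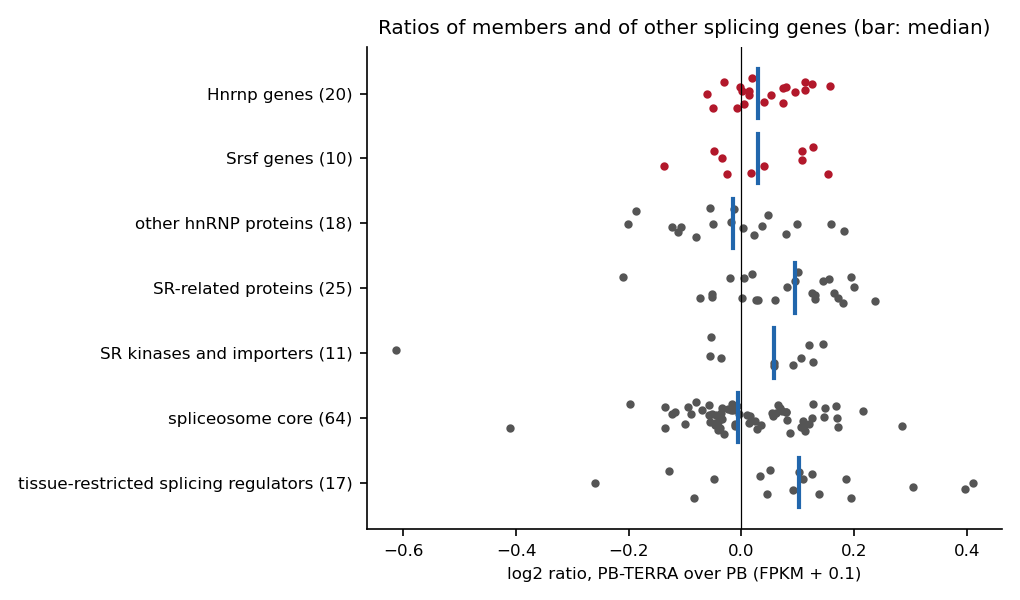
Log2 ratio of FPKM + 0.1, PB-TERRA over PB, of each gene past the filter in the Hnrnp and Srsf sets (red) and in the 5 lists of other splicing genes (grey), with the number of genes in brackets and the median as a blue bar. The red points stay between -0.14 and 0.16 (SD 0.072). The SD is 0.11 each for the other hnRNP proteins, the SR-related proteins and the spliceosome core. It is 0.18 for the tissue-restricted regulators and 0.21 for the kinases and importers. Clk2 lies at -0.61 and Sf3b5 at -0.41.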

How the data were processed

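The authors sequenced RNA of 46C mESCs on a BGISEQ500, as 1 PB library and 1 PB-TERRA library. The authors deposited 1 table of 18888 genes. Its header names no unit, and the values were read as FPKM from their 2 decimals, a floor of 0.01 and column sums of 497560 and 484632. Per the labels, the authors made TruSeq libraries; read as FPKM, the deposited values are fragments per gene scaled by them to length and depth. The submitters' processing notes name HISAT, Cufflinks and the build mm9, and the counter and annotation are not given in the sources used here. The table also holds the authors' fold changes and p-values, which were not used.

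Ratios, the filter and thresholds of 0.2 and 1 are described with the results. Depth and a length offset of 114 bases were chosen so that values under 3 FPKM of genes of 300 to 900 bases came nearest to whole fragments. Of 677 values in PB and 716 in PB-TERRA, 76.5% and 81.0% lay within 0.15 fragments of a whole number. FPKM times the corrected length then summed to 100.02% and 99.98% of the fitted depth. Intervals are exact (Clopper-Pearson). With 1 library per condition no test was run, and for the 30 members past the filter the intervals reached 0.022 to 0.14 on either side of the log2 ratio, with wider ones for genes of few fragments.

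Scaling, pseudocount, filter, gene length (50 bins) and summed copies were varied. Every member is named, and of each list the 2 highest and 2 lowest ratios. Members and lists were chosen with earlier results of these data known. Code was tested on simulated data. The software was Python 3.11.15 with scipy 1.17.1, pandas 2.3.3, numpy 2.4.6 and, for plots, matplotlib 3.10.9.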

Additional observations from a re-analysis of the deposited data

How the results depend on the processing

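The count of members past a log2 ratio of 0.2 was 0 under all alternatives but 1, and it became 1 without the filter, which adds Srsf12. The count past a log2 ratio of 1 was 0 under every alternative tried. Scaling both libraries to the same sum shifted all genes by 0.038 on the log2 scale, moved 11 of 30 members by more than the half-width of their counting interval and changed the sign of 5, Hnrnpab (to 0.0078), Srsf7, Srsf11, Hnrnpr and Hnrnpm, of which Hnrnpab had an interval that left out 0. With the length trend taken off 4 signs changed, those of Hnrnpab (0.0042), Srsf2 (0.0022), Hnrnpm (0.032) and Hnrnpa3 (-0.029). Intervals below 0, 5 on the deposited scale, were 0 under the same sum and 2 without the length trend, and those above 0 ranged from 12 (75th percentile) to 18 (same sum). The shares of all genes moved too, from 16.5% to 25% above 0 and from 12.3% (same sum) to 19.5% (75th percentile) below 0. The interval counts under settings other than the deposited scale were also added after seeing the data. Summing fragments with listed genes that share stretches, an alternative chosen after seeing the data, turned Hnrnpa1 to -0.078. For Hnrnph1 the sum was at 0.078. It took in all fragments of Setd1b, which shares 1.64% of the stretches of Hnrnph1, and is no value of Hnrnph1 alone. The cause of the other changes was not tested. The pseudocounts, the filters, centring and the 75th percentile moved no member by more than that half-width, but centring changed the sign of Hnrnpm and brought 0 into the interval of Hnrnpab (-0.053 to 0.0019), and the 75th percentile changed the signs of Hnrnpa0 and Hnrnpa3 and brought 0 into the interval of Hnrnpc. No paired analysis was possible because each condition has 1 library.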
